A study of Mus musculus with 6 samples.

Results

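The genes described here are 40 mouse genes whose products build ribosomes, chosen by name as a list and matched by Ensembl gene ID to 40 of the 25528 genes in the deposited count tables. They were measured by sequencing of polyadenylated RNA in organoids, which are epithelial structures grown in 3D culture, from the corpus (the acid-secreting body) of the mouse stomach. The overexpressing group, Erbb2_OE_Corpus, carried an Erbb2 overexpression construct, and the control, Ctrl_Corpus, had been transduced with an empty vector, per the series' design text. Each group had 3 libraries, numbered 1 to 3 in both. The design text names transduction for the control, and the labels give no method of delivery for the construct. The labels also give no mouse strain or age and no promoter for the construct. They do not state that the 3 libraries of either group stem from separate cultures or animals, so that p-values measure the spread between these libraries, which may be technical. ERBB2 is a receptor tyrosine kinase that signals through the RAS-MAPK and PI3K pathways, and whether its overexpression went with a change in the machinery of ribosome production is the question this list addresses.

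Ribosomes are made in the nucleolus. RNA polymerase I transcribes one long precursor of the ribosomal RNAs, small nucleolar ribonucleoproteins (snoRNPs) guide its chemical modification, and assembly factors fold and cut it into the small and the large subunit. The transcription factor MYC, which binds with its partner MAX to the E-box sequence CACGTG, is known to raise many of these genes in growing and tumour cells. Polyadenylated RNA reports the messages for these factors and not the ribosomal RNA they process.

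Total counts lay between 18735853 and 22767455 per library, and 12593 genes had enough counts to be tested. All 40 ribosome biogenesis genes were among them. Erbb2 itself (ENSMUSG00000062312) was at 342, 349 and 285 CPM (counts per 1000000 TMM-scaled counts) in overexpressing replicates 1, 2 and 3, against 125, 164 and 128 CPM in empty-vector replicates 1, 2 and 3. Those groups did not overlap, and the log2 fold change was 1.23 in edgeR without the replicate number as a block (adjusted p = 0.64) and 1.24 with it (adjusted p = 3.55e-05). The epithelial markers Epcam and Cdh1 stood at 672 to 763 and 1937 to 2279 CPM in overexpressing libraries, against 704 to 850 and 2051 to 2164 CPM in empty-vector libraries. Of 14 gastric epithelium markers 12 were tested, and with the block Tff2, a trefoil peptide gene of mucous neck cells, rose (log2 fold change 0.91, adjusted p = 0.00167 in edgeR) and Sox2, a transcription factor gene of the foregut, fell (log2 fold change -0.48, adjusted p = 0.0144). Neither passed without the block (adjusted p = 0.9997 for both), and the part of these differences in the results below was not tested. Of the acid pump of parietal cells, Atp4b had 0 counts in each library and Atp4a was at 2.87 to 5.41 CPM in overexpressing and 3.20 to 4.62 CPM in empty-vector libraries. Markers of fibroblasts, immune cells and endothelium summed to 60.9 to 97.6, 18.6 to 74.0 and 2.83 to 15.2 CPM in overexpressing libraries, against 55.6 to 96.3, 20.8 to 54.2 and 3.38 to 6.67 CPM in empty-vector libraries. Of these lists 2 of 10, 2 of 10 and 3 of 7 genes were tested, and Col1a2, Adgre1 and Cldn5 were at 0 counts throughout. The fibroblast sum was mostly Fbln1, at 59.0 to 96.0 CPM in overexpressing and 54.8 to 94.6 CPM in empty-vector libraries. The immune sum was mostly Cd68, at 17.3 to 72.8 CPM in overexpressing and 18.2 to 52.9 CPM in empty-vector libraries. The highest endothelial sum held 8.95 CPM of Tek, which was below 1 CPM in the other 5 libraries.

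Promoter sequence was looked at for the E-box because MYC is known to raise many such genes and because Myc is described with them below. RefSeq promoter windows of the GRCm38.p6 build, from 250 bases before to 50 after a gene's start, were matched for 34 of the 40 genes. The letters CACGTG, the same on both strands, were in a window of 7 of these 34 genes (20.6%), against 8.09% of the 27025 genes with a window. They lay before the start site in Rrn3 and Nop2 and at or after it in Wdr43, Mybbp1a, Utp4, Pes1 and Utp20. The letters TATAAA, on either strand, were in a window of 3 of the 34 (8.82%), against 15.7% of all. The median GC content of the windows was 59.7% for the list and 52.7% for all. These shares were not matched for GC content or expression level. CACGTG was in a window of 19.4% of the matched genes among 112 further factors described below. For cytosolic ribosomal protein genes it was 10.3%. The median GC contents of these 2 lists were 58% and 58.5%. Shown first are the stretches of Nop2 and Rrn3 around their E-boxes, which stand in capitals, and then, for comparison, the 100 bases before the start of Nop56 and Gnl3, the 2 genes that differed most between replicate numbers, in whose windows neither motif was found. Each is written 5′ to 3′ on the gene's own strand.
Nop2, chr6:125131778-125131873, plus strand: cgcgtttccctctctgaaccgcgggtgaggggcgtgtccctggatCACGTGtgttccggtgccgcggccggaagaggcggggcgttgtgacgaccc
Rrn3, chr16:13780449-13780698, plus strand: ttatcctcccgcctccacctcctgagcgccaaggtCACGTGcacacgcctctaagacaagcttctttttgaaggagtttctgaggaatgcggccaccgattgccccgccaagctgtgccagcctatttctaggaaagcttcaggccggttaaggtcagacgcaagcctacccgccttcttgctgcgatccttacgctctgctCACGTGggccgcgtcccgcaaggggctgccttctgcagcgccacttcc
Nop56, chr2:130274312-130274411, plus strand: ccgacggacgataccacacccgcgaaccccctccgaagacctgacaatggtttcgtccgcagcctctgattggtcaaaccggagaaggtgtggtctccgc
Gnl3, chr14:31019132-31019231, minus strand: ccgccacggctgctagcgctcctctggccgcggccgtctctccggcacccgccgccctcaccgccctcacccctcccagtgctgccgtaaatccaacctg

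None of the 40 ribosome biogenesis genes passed the test between Erbb2-overexpressing and empty-vector organoids. Without a block edgeR called 0 of 40 higher and 0 lower, where it called 0% of all genes in either direction. With the replicate number as a block it again called 0 of 40 higher and 0 lower, where 2.37% of all genes were called higher and 0.723% lower. That is 3.09% of all genes in either direction. At an unadjusted p under 0.05 without the block, 0 of the 40 stood higher and 1 lower, where 2.17% of all genes stood higher and 1.16% lower (3.33% in either direction). At that level with the block, 0 stood higher and 2 lower, where 16.9% of all genes passed in either direction. DESeq2 and limma voom also called 0 of 40, with and without the block. Of all 12593 genes DESeq2 called 28 higher and 6 lower without the block, and 370 higher and 96 lower with it. Limma voom called 0 of all genes without the block, and 288 higher and 88 lower with it. In edgeR the adjusted p was 0.9997 for each of the 40 genes without the block, and with it the lowest was 0.135, for Fbl.

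The fitted differences were small. With the block the log2 fold changes ran between -0.30 for Wdr12 and 0.20 for Utp20, with 19 above 0 and 21 below, where 48.4% of all genes tested were above 0. Their median was -0.0066, beside a median of -0.0068 over all genes tested. Without the block the median was -0.018, beside -0.0099 over all genes. The 95% interval of the fold change, taken gene by gene, lay within 1.5-fold in both directions for 40 of 40 genes with the block, where that held for 70.2% of all genes tested. Without the block it lay within 1.5-fold for 31 of 40 and within 2-fold for 40 of 40, where these bounds held 50.6% and 75.2% of all genes. All genes tested include genes with fewer counts than any of the 40, and intervals tend to be wider at few counts. These shares were not matched for level. The outermost bounds with the block were -0.55 for Wdr12 and 0.44 for Rrp9 on the log2 scale. All these values are shares of the counted messages. A change in total RNA per cell would not show in them, and in whole organoids fewer cells of a type and less RNA per cell cannot be told apart.

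**Figure D1:**
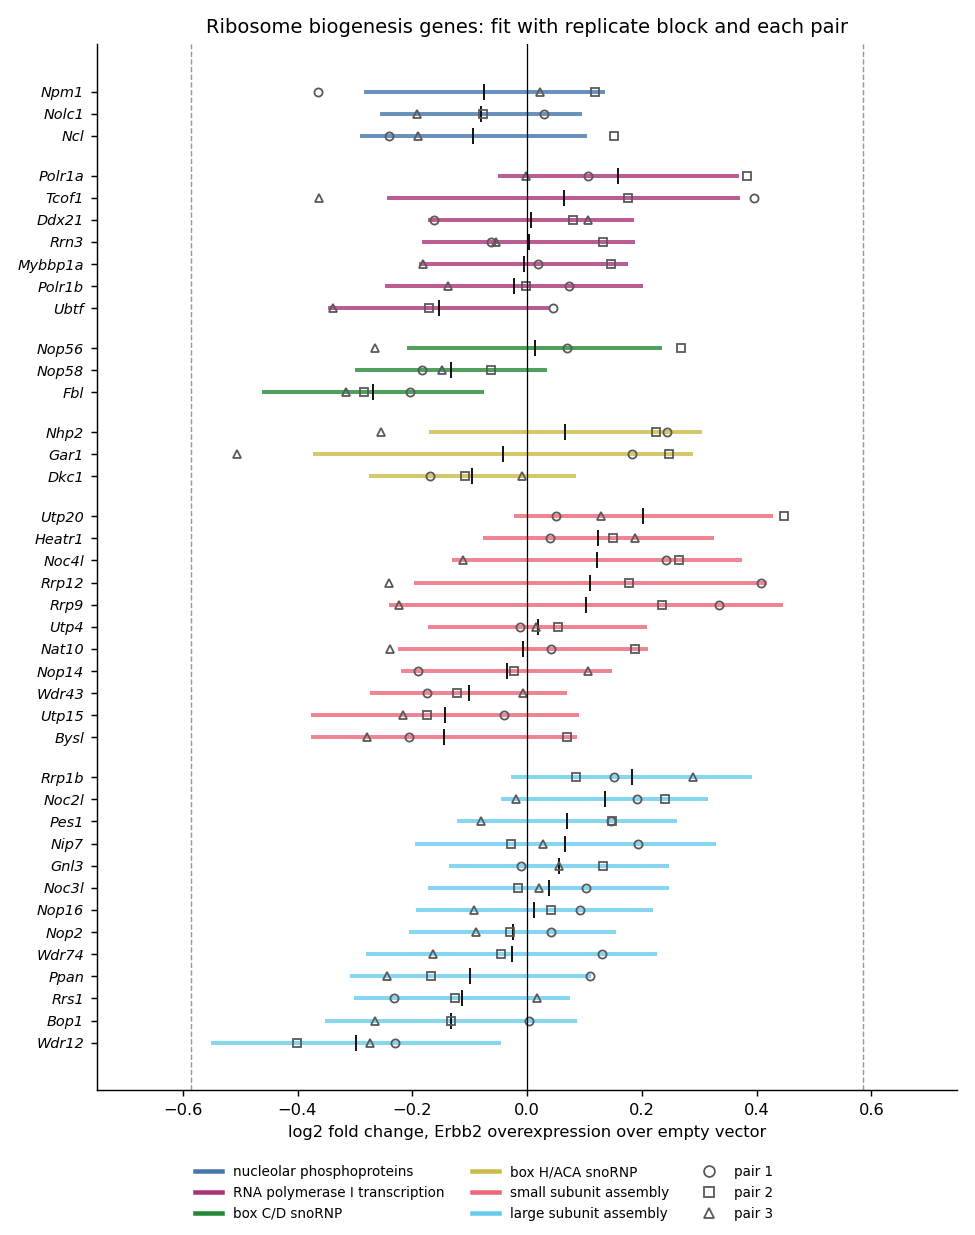
Log2 fold change (x axis) of the 40 genes, grouped by role (y axis). Black ticks are estimates of the edgeR fit with the replicate block, coloured bars their 95% intervals, and open circles, squares and triangles the differences within pairs 1, 2 and 3. Dashed lines mark a 1.5-fold change, and all 40 bars lie between them.

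The 3 nucleolar phosphoproteins, mostly Ncl and Npm1, held about as many counts as the other 37 genes together. They summed to 2995, 2794 and 3080 CPM in overexpressing replicates 1, 2 and 3, against 3631, 2558 and 3297 CPM in the empty-vector ones, and the whole list to 5149 to 6018 and 4836 to 6675 CPM. Ncl (ENSMUSG00000026234), nucleolin, which binds the ribosomal RNA precursor and nucleolar chromatin, was at 1631, 1455 and 1535 CPM in overexpressing replicates 1, 2 and 3. In empty-vector replicates 1, 2 and 3 it was at 1927, 1310 and 1752 CPM. Both groups overlapped, and the 3 overexpressing values lay inside the range of the empty-vector ones. The log2 fold change of Ncl was -0.09 with the block (95% interval -0.29 to 0.10, adjusted p = 0.664 in edgeR).

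Npm1 (ENSMUSG00000057113), nucleophosmin, a histone and ribosome chaperone that shuttles between nucleolus and cytoplasm, was at 1197, 1231 and 1391 CPM in overexpressing replicates 1, 2 and 3, against 1540, 1134 and 1370 CPM in empty-vector ones. The pairs disagreed in sign: replicate 1 was lower in the overexpressing organoids and replicates 2 and 3 were higher. Npm1 has many processed pseudogenes whose reads can be shared with it, so that its level is uncertain. Nolc1, a phosphoprotein that chaperones snoRNPs, was at 167, 108 and 153 CPM in overexpressing replicates, against 164, 114 and 175 CPM in empty-vector ones. Its low library was replicate 2 in both groups, and its log2 fold change was -0.08 (adjusted p = 0.68 in edgeR with the block). Per 1000 bases of coding length, Npm1 and Ncl were the most abundant of the 40, with means over the 6 libraries of 1496 and 755 CPM, and Nop58 came next with 133. Utp20 and Rrp12 were the lowest, with 5.10 and 5.42 CPM per 1000 coding bases.

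Among the 7 genes of RNA polymerase I transcription, 4 had a log2 fold change above 0 with the block and 3 below, between -0.15 for Ubtf and 0.16 for Polr1a. Ubtf, the upstream binding factor that keeps ribosomal DNA open for the polymerase, was at 175, 144 and 123 CPM in overexpressing replicates 1, 2 and 3, against 169, 162 and 156 CPM in empty-vector replicates. Ubtf stood lower with the Erbb2 construct in replicates 2 and 3 and not in replicate 1 (95% interval of the log2 fold change -0.34 to 0.04, adjusted p = 0.417 in edgeR with the block). Polr1a, the largest subunit of RNA polymerase I, was at 71.3, 65.96 and 58.1 CPM in overexpressing replicates, against 66.2, 50.5 and 58.2 CPM in empty-vector ones. The difference came mostly from replicate 2, and the adjusted p was 0.443. Mybbp1a, a nucleolar MYB-binding protein and the most counted gene of this role, had 326, 246 and 278 CPM in overexpressing replicates, against 321, 222 and 315 CPM in empty-vector replicates. Its log2 fold change was -0.01.

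The other polymerase I genes lay as close to 0 with the block: Polr1b, the second-largest subunit, at -0.02, the initiation factor gene Rrn3 at 0.00 and the RNA helicase gene Ddx21 at 0.01. Tcof1, whose product treacle recruits the polymerase and which is mutated in Treacher Collins syndrome in humans, was the one gene of the 40 whose call depended on the libraries used. It was at 81.8, 62.3 and 76.1 CPM in overexpressing replicates 1, 2 and 3, against 62.2, 55.1 and 97.8 CPM in empty-vector replicates. The overexpressing value was the higher one in pairs 1 and 2 and the lower one in pair 3. With all libraries its log2 fold change was 0.06 (adjusted p = 0.865 in edgeR with the block), and without both replicate 3 libraries it was 0.30 (adjusted p = 0.0488). That smaller fit called many genes, 769 higher and 320 lower of 12499 tested, beside 1 higher and 0 lower of the 40.

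Box C/D snoRNPs add methyl groups to ribosomal RNA. Fbl (ENSMUSG00000046865), fibrillarin, their methyltransferase, was at 49.5, 44.7 and 48.8 CPM in overexpressing replicates 1, 2 and 3. In empty-vector replicates 1, 2 and 3 it was at 57.1, 54.4 and 60.7 CPM. All 3 overexpressing libraries stood below all 3 empty-vector libraries, which held for 2 of the 40 genes, where 4.48% of all genes tested stood lower in this way. None stood higher in this way, where 4.27% of all genes did (8.75% in either direction). The means were 47.7 ± 2.61 CPM and 57.4 ± 3.16 CPM (SD, n = 3 each). The log2 fold change of Fbl was -0.27 in both fits, with an unadjusted p of 0.0356 in edgeR without the block and 0.00921 with it, and neither held after adjustment (adjusted p = 0.9997 and 0.135).

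Nop56 and Nop58 encode the paired core proteins of the same particle. Nop58 was at 197, 142 and 165 CPM in overexpressing replicates, against 224, 149 and 183 CPM in empty-vector replicates, lower in 3 of 3 pairs with a log2 fold change of -0.13 (adjusted p = 0.419 in edgeR with the block). Nop56 was at 107, 59.8 and 110 CPM in overexpressing replicates, against 102, 49.6 and 132 CPM in empty-vector replicates. Its level followed the replicate number, with both replicate 2 libraries far below the rest, and its log2 fold change between the groups was 0.01. Lower in 3 of 3 pairs were 6 of the 40 genes and higher in 3 of 3 pairs were 3, where 19.2% and 19.6% of all genes tested were.

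Box H/ACA snoRNPs convert uridine to pseudouridine. Dkc1, dyskerin, the pseudouridine synthase, was at 92.3, 66.4 and 89.7 CPM in overexpressing replicates, against 104, 71.5 and 90.2 CPM in empty-vector replicates. It was lower in 3 of 3 pairs by a small margin that did not pass (log2 fold change -0.10, adjusted p = 0.618 in edgeR with the block). Nhp2, a core protein of the particle, was at 59.9, 55.5 and 53.5 CPM in overexpressing replicates, against 50.6, 47.5 and 63.8 CPM in empty-vector replicates, so that pairs 1 and 2 stood opposite to pair 3. Gar1, another core protein, had the same split between pairs and a log2 fold change of -0.04.

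**Figure D2:**
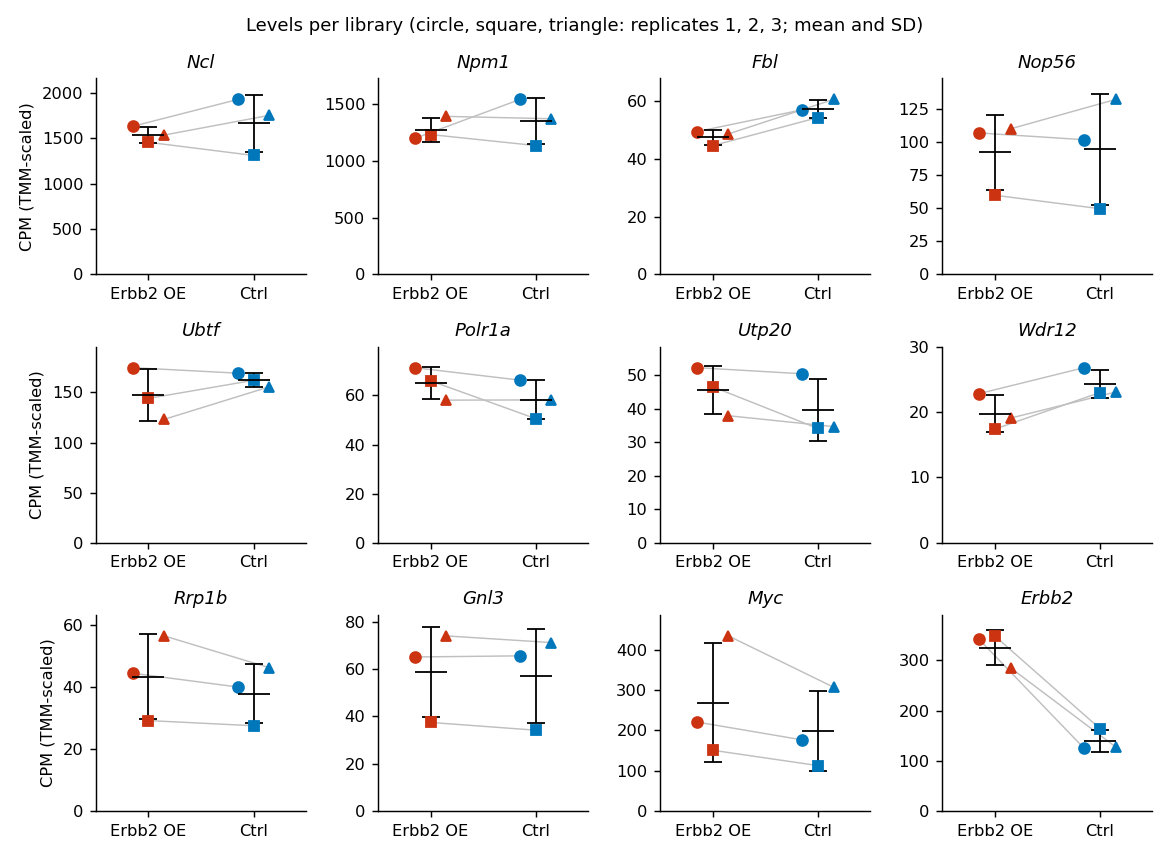
Levels in CPM (y axis, from 0) of 10 ribosome biogenesis genes, Myc and Erbb2 in Erbb2-overexpressing (left, red) and empty-vector organoids (right, blue). Points are libraries, grey lines join the same replicate number, and black bars are the mean and SD of 3 libraries. Fbl and Wdr12 show 3 overexpressing libraries below 3 empty-vector libraries, and Nop56 and Gnl3 are lowest in replicate 2 of both groups.

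The 11 genes of small subunit assembly had 6 log2 fold changes above 0 and 5 below with the block, and a median of 0.02. Utp20, a scaffold of the small subunit processome, had the highest of the 40. Its levels were 52.3, 46.6 and 37.9 CPM in overexpressing replicates, against 50.5, 34.1 and 34.7 CPM in empty-vector replicates. It stood higher in 3 of 3 pairs, by little in replicates 1 and 3 and more in replicate 2 (log2 fold change 0.20, 95% interval -0.02 to 0.43, adjusted p = 0.348 in edgeR with the block). Heatr1, another processome scaffold, was also higher in 3 of 3 pairs (log2 fold change 0.12, adjusted p = 0.547). Wdr43, the most counted gene of this role and a processome component, was at 172, 117 and 158 CPM in overexpressing replicates, against 194, 128 and 158 CPM in empty-vector replicates. Bysl, bystin, needed for late small subunit maturation, was at 36.5, 33.0 and 28.6 CPM in overexpressing replicates, against 42.2, 31.4 and 34.8 CPM in empty-vector replicates. Their groups overlapped, and their log2 fold changes were -0.10 and -0.14 (adjusted p = 0.566 and 0.544 in edgeR with the block).

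Of the rest of this role, the processome gene Utp15 was at -0.14, Nop14 at -0.04, the acetyltransferase gene Nat10 at -0.01, Utp4 at 0.02, Rrp9, which binds the U3 snoRNA, at 0.10, Rrp12, an export factor, at 0.11 and Noc4l at 0.12 on the log2 scale. Their adjusted p-values in edgeR with the block lay between 0.55 for Utp15 and 0.983 for Nat10.

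The 13 genes of large subunit assembly had 7 log2 fold changes above 0 and 6 below with the block. Wdr12 (ENSMUSG00000026019), which with Pes1 and Bop1 forms the PeBoW complex needed for large subunit maturation, was at 22.8, 17.4 and 19.1 CPM in overexpressing replicates 1, 2 and 3, against 26.8, 22.98 and 23.1 CPM in empty-vector replicates. Its groups did not overlap by a narrow margin, 22.81 against 22.98 CPM at the nearest libraries. The log2 fold change was -0.30 (95% interval -0.55 to -0.05) with an unadjusted p of 0.0231 and an adjusted p of 0.21 in edgeR with the block. Of its partners in the complex, Bop1 stood at -0.13 (95% interval -0.35 to 0.08, adjusted p = 0.558) and Pes1 at 0.07 (95% interval -0.12 to 0.26, adjusted p = 0.749). The intervals of the 3 genes overlapped, and the differences between the genes were not tested.

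Rrp1b, a nucleolar protein that targets a phosphatase to pre-ribosomes, was at 44.4, 29.2 and 56.5 CPM in overexpressing replicates, against 39.99, 27.5 and 46.2 CPM in empty-vector replicates. It stood higher in 3 of 3 pairs (log2 fold change 0.18, adjusted p = 0.367 in edgeR with the block). Noc2l, a nucleolar complex protein and the most counted gene of this role, was at 181, 133 and 203 CPM in overexpressing replicates, against 159, 112 and 206 CPM in empty-vector replicates. Pairs 1 and 2 were higher in the overexpressing organoids, pair 3 was nearly level, and the adjusted p was 0.445. On the log2 scale with the block, the RNA methyltransferase gene Nop2 was at -0.03, Nop16 at 0.01, Wdr74 at -0.03, Rrs1, which brings in the 5S ribonucleoprotein, at -0.11, Ppan at -0.10, Noc3l at 0.04, the nucleolar GTPase gene Gnl3 at 0.06 and Nip7 at 0.07. None of these had an adjusted p under 0.559 in edgeR with the block.

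By the median size of the range, the 40 genes differed by replicate number about as much as all genes tested, which include less counted genes. The order of the numbers was more alike among the 40 than over all genes, as given in the next paragraph. For 38 of the 40 the range over the means of pairs 1, 2 and 3 was larger than the difference between the groups, which also held for 85.8% of all genes tested. A range over 3 means tends to exceed a difference between 2, so that the share over all genes is the measure to read it against. The median range was 0.353 on the log2 scale for the 40, beside a median group difference of 0.0865. For all genes these medians were 0.369 and 0.128. The number 2 libraries were the low ones. Relative to each gene's mean over the 6 libraries, the median of the 40 was 0.16, -0.14 and -0.001 on the log2 scale in overexpressing replicates 1, 2 and 3, and 0.13, -0.24 and 0.12 in empty-vector ones.

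Replicate 2 had the lowest level of its group in both groups for 25 of the 40 genes (62.5%), where 23.1% of all genes tested showed that. It was the highest in both groups for 0 of the 40, where 23% of all genes did. Replicate 1 was the highest in both groups for 18 of the 40 (45%), against 11.5% of all genes. The pattern was noticed in these data and was not tested. The range by number was widest for Nop56 (1.14 on the log2 scale), Gnl3 (1.02) and Ppan (0.962), a set named after its values were seen. Gnl3 was at 65.1, 37.4 and 74.0 CPM in overexpressing replicates 1, 2 and 3, against 65.6, 34.1 and 71.2 CPM in empty-vector ones. Ppan was at 69.7, 36.1 and 68.5 CPM in overexpressing replicates, against 64.6, 40.5 and 81.1 CPM in empty-vector ones. In both genes the 2 libraries of replicate 2 stood well below the other 4, whichever construct they carried.

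Mitochondrial transcripts were highest in the same libraries, at 11.1% of counts in overexpressing replicate 2 and 10.6% in empty-vector replicate 2, against 6.34% to 8.14% in the other 4, and their part in the pattern was not tested. Taking mitochondrial genes out before scaling gave the same 25 of the 40 and the same median range by number, 0.353. TMM scaling responds little to the removal of a few genes, so this count cannot decide their part. The difference between the constructs also had a different sign in different pairs. Of the 40 genes, 25 were higher in the overexpressing library of pair 1 and 23 in that of pair 2, but 11 in that of pair 3, beside 49.1%, 50.5% and 49.7% of all genes tested. The median log2 difference of the 40 within pairs 1, 2 and 3 was 0.042, 0.075 and -0.124.

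**Figure D3:**
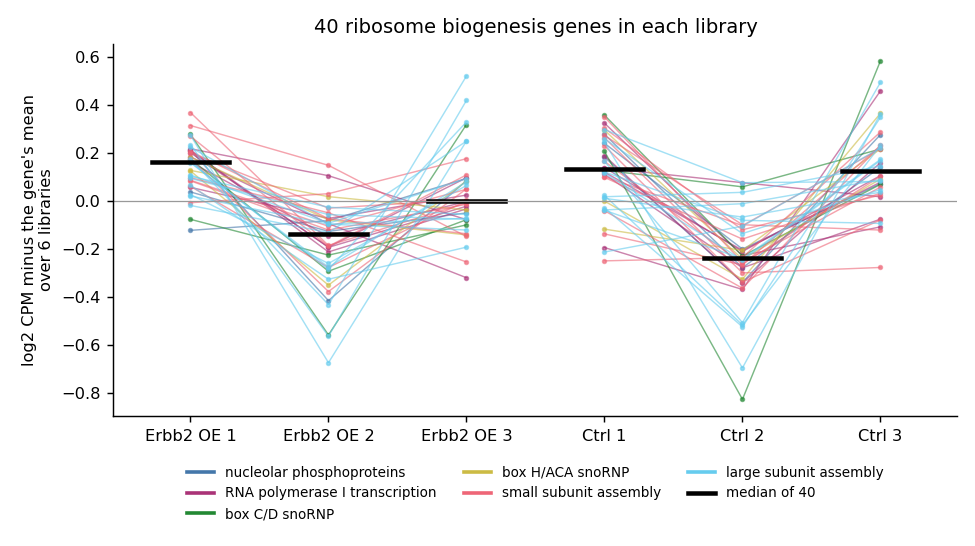
Level of each of the 40 genes in each library as log2 CPM minus the gene's mean over the 6 libraries (y axis), with overexpressing libraries on the left and empty-vector libraries on the right. Coloured lines are genes by role and black bars the median of the 40. The medians of both replicate 2 libraries, -0.14 and -0.24, are the lowest of their groups.

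Other genes of ribosome production gave the same count. From a list of 112 further factors, all of them tested, edgeR called 0 higher and 0 lower with and without the block. Of all genes it called 2.37% higher and 0.723% lower with the block, and 0% without it. At an unadjusted p under 0.05 with the block 1 of the 112 stood higher and 7 lower, where 9.64% and 7.21% of all did. The log2 fold changes of the 112 in that fit had a median of -0.035, beside -0.0068 over all genes tested. Of the 112, 41 were above 0 and 71 below, where 48.4% of all genes were above 0. The 4 with the smallest p were Rpf1 and Rpf2, assembly factors of the large subunit, the helicase gene Ddx47 and Mdn1, the giant ATPase that strips factors from large subunit precursors. Rpf1 was at 61.4, 60.6 and 56.8 CPM in overexpressing replicates, against 75.1, 71.0 and 66.9 CPM in empty-vector replicates, and its groups did not overlap (log2 fold change -0.25, adjusted p = 0.136 in edgeR with the block). Rpf2 was at 57.3, 53.5 and 51.8 CPM in overexpressing replicates, against 65.0, 63.1 and 61.6 CPM in empty-vector replicates, and its groups did not overlap either (log2 fold change -0.22, adjusted p = 0.20). With Rrp1, 3 of the 112 stood lower without overlap and 0 higher, where 4.48% and 4.27% of all genes tested did. Ddx47 was at 131, 101 and 103 CPM in overexpressing replicates, against 145, 119 and 124 CPM in empty-vector replicates (log2 fold change -0.22, adjusted p = 0.171). Both Ddx47 and Rpf2 were lower in 3 of 3 pairs, and the Ddx47 groups overlapped. Mdn1 was at 58.5, 62.2 and 28.1 CPM in overexpressing replicates, against 58.5, 41.1 and 20.2 CPM in empty-vector replicates, level in pair 1 and higher in pairs 2 and 3 (log2 fold change 0.34, adjusted p = 0.155). Dcaf13, a processome gene, passed when both replicate 3 libraries were left out (log2 fold change -0.40, adjusted p = 0.0107) and not with all libraries (-0.26, adjusted p = 0.257). It was the 1 of the 112 called in that smaller fit, where 769 of 12499 genes tested were called higher and 320 lower.

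Replicate 2 was the lowest in both groups for 63 of these 112 genes (56.2%) as well. The messages of the 79 cytosolic ribosomal proteins did not show that order: replicate 2 was the lowest in both groups for 0 of them and the highest for 34 (43%). They summed to 26220, 29060 and 26740 CPM in overexpressing replicates 1, 2 and 3, against 26590, 28990 and 28560 CPM in empty-vector replicates. Of the 79, edgeR called 0 with and without the block, where 3.09% of all genes were called with it and 0% without it. At an unadjusted p under 0.05 there was 1 of the 79 with the block and 0 without it, where 16.9% and 3.33% of all genes passed. The log2 fold changes of the 79 had a median of -0.028 with the block, beside -0.0068 over all genes tested.

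**Figure D4:**
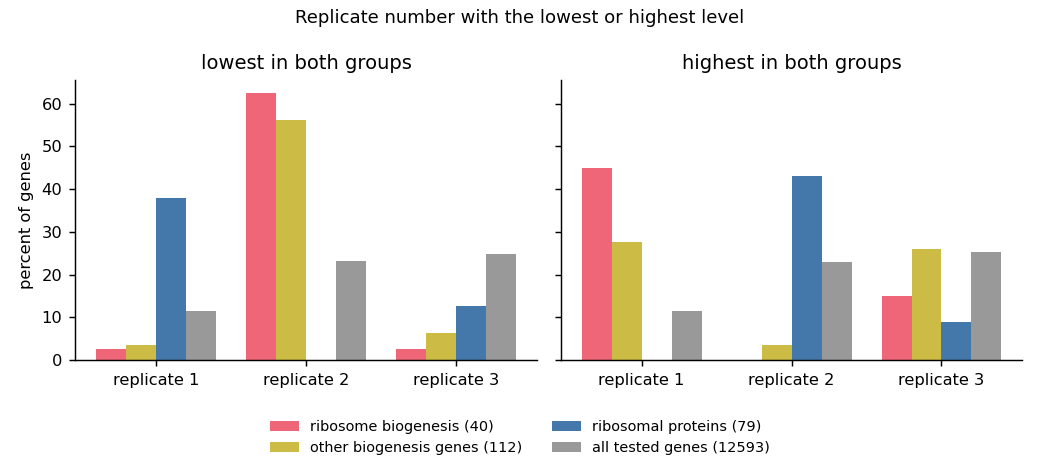
Percent of genes (y axis) whose lowest (left) or highest (right) level in both groups fell on the same replicate number (x axis). Bars are the 40 ribosome biogenesis genes, 112 other biogenesis genes, 79 ribosomal protein genes and all 12593 genes tested. At replicate 2 the lowest level is found for 62.5% and 56.2% of the biogenesis lists, 0% of ribosomal protein genes and 23.1% of all genes.

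Myc, whose product is known to raise many ribosome biogenesis genes, was at 221, 151 and 435 CPM in overexpressing replicates 1, 2 and 3. In empty-vector replicates it was at 176, 113 and 307 CPM. It was higher in 3 of 3 pairs and rose in edgeR with the block (log2 fold change 0.415, SE 0.08, adjusted p = 0.0124), but did not pass without it (adjusted p = 0.9997). In both groups its highest library was that of replicate 3 and its lowest that of replicate 2. Replicate 2 was also the lowest in both groups for 25 of the 40 ribosome biogenesis genes (23.1% of all genes tested). Replicate 3 was the highest in both for 6 of the 40 (25.2% of all). The overexpressing library was the higher one for 25, 23 and 11 of the 40 in pairs 1, 2 and 3. Over all genes tested these shares were 49.1%, 50.5% and 49.7%. A link of these orders to Myc was not tested. The 7 genes with an E-box in a window, such as Nop2 and Rrn3 whose sequences are given above, had log2 fold changes between -0.10 for Wdr43 and 0.20 for Utp20, with adjusted p-values between 0.348 and 0.992 in edgeR with the block. A motif match describes the sequence and does not show that MYC was bound there.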

How the data were processed

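Polyadenylated RNA of 6 libraries was measured. The authors deposited 1 table of raw counts by Ensembl ID for each library, made with STAR and featureCounts on GRCm39 per the submitters' processing notes. Neither versions nor annotation nor strand are given in the sources used here. Without the strand, reads of overlapping antisense genes cannot be told apart. Symbols were matched for 25424 of 25528 IDs, and coding lengths came from GENCODE M21.

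Genes were filtered with filterByExpr (minimum count 10), scaled by TMM and tested two-sided in edgeR 4.0.16 (R 4.3.3) with robust quasi-likelihood fits. P-values were adjusted by Benjamini-Hochberg over the 12593 genes tested, threshold 0.05. The SE came from the log2 fold change and its F value, and intervals from the SE and the t quantile. The scripts were tested on simulated data. The main design had the group as its single term. Same-numbered libraries deviated together from their group means (correlations 0.333, 0.66 and 0.707 across genes), so a second fit, blocked on the number, is given beside it, although the labels do not say what a number shares.

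The 40 genes and all lists were chosen with earlier results of these data known. All 40 genes are named by role. Library values are given for the 2 smallest p-values (block) and the most counted gene of each role, for the 4 smallest p-values of the list of 112, for Myc, and for genes among the 2 smallest p-values of the ribosomal protein (Rps4x) and MAX network (Mycl) lists; Npm1, Tcof1, Gnl3, Nop56, Ppan and, by its fold change alone, Dcaf13 were added after their values were seen. Alternatives were DESeq2 1.42.0, limma voom (limma 3.58.1), upper-quartile and RLE scaling, other low-count filters, the earlier form of the fit, removal of mitochondrial genes and Erbb2, and libraries left out in turn.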

Additional observations from a re-analysis of the deposited data

How the results depend on the processing

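Without the block, 0 of the 40 genes were called under each of the 8 alternatives with all libraries. The same held with each of the 6 single libraries left out. Of all genes tested, DESeq2 called 28 higher and 6 lower, and the fit without empty-vector replicate 3 called 1 higher. The other fits without the block called 0 of all genes, so that 0 of 40 there says nothing particular to the list. With the replicate block the 8 alternatives again gave 0 of 40. Of all genes they called 272 to 370 higher and 73 to 96 lower. Leaving out a pair gave 0 to 1 of 40, and 0 to 1 of the list of 112; the 1 of each came without replicate 3 (Tcof1 higher, Dcaf13 lower). The median log2 fold change of the 40 lay between -0.126 (without empty-vector replicate 2) and 0.0704 (without overexpressing replicate 2) when single libraries were left out, and between -0.0246 and 0.0491 when pairs were left out of the fit with the block. Leaving out libraries changed the sign of 29 of the 40 log2 fold changes without the block and of 16 with it. Sign changes were not counted over all genes, so that these counts cannot be read as particular to the 40. Over all genes the block moved the calls of edgeR to 389, against 0 without it; without the block DESeq2 called 34. With the block 213, 145 and 1089 genes were called without replicates 1, 2 and 3. The cause of these shifts was not tested. Depth bears most on the least counted of the 40, Rrp9, which averaged 13.5 CPM in overexpressing and 12.6 CPM in empty-vector libraries.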

Other observations

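The messages of ribosomal proteins also differed between pairs. In pair 3, 7 of the 79 (8.86%) were higher in the overexpressing library, where 42 of the 79 were in pair 1 and in pair 2. Rps4x, of the small subunit, was at 802, 870 and 747 CPM in overexpressing replicates, against 935, 931 and 822 CPM in empty-vector replicates (adjusted p = 0.323 in edgeR with the block). Of the 79, 22 were lower in 3 of 3 pairs and 0 were higher in all of them, where 19.2% and 19.6% of all genes tested were. Of 12 genes of the MAX network, 1, Myc, was called with the block, where 3.09% of all genes were. Mycl, a paralog of Myc, was at 17.1, 16.7 and 22.6 CPM in overexpressing replicates, against 12.5, 9.13 and 18.8 CPM in empty-vector replicates, and its log2 fold change of 0.50 missed the threshold (adjusted p = 0.0973 in edgeR with the block).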
